A study of Homo sapiens with 4 samples.

Results

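The miRNAs described here are 6 that are typical of red cells (hsa-miR-451a, hsa-miR-144-3p and hsa-miR-486-5p), of leukocytes (hsa-miR-223-3p and hsa-miR-150-5p) and of liver (hsa-miR-122-5p), written below without the species prefix. They were chosen by name from the 2588 mature miRNAs of the count table, as miRNAs that a prostate cell line hardly makes and that serum could bring into a vesicle preparation. The libraries were made from extracellular vesicles (EVs) of PC3 cells, a human prostate cancer line from a bone metastasis, grown without any other treatment in medium with 10% fetal bovine serum. According to the study's methods, the vesicles were collected in medium with exosome-free serum and isolated with the exoEasy kit, which binds vesicles to a membrane, and on qEV size exclusion columns. Small RNA was sequenced in 2 libraries and total RNA in 2 others, all of the same line, and there is no second condition. None of the 4 samples is a serum or medium without cells, so reads from PC3 vesicles and reads carried over from the medium cannot be told apart in these counts. Nor can fewer vesicles that carry a miRNA be told apart from less of it per vesicle.

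A miRNA is a short RNA cut from a hairpin precursor, of which usually 1 arm, 5p or 3p, is kept and loaded into an Argonaute protein, where its seed (bases 2 to 8 from the 5′ end) pairs with target transcripts. miR-451a and miR-144 lie in 1 cluster that is strongly transcribed in developing red cells, and miR-451a is unusual in being cut by Argonaute 2 rather than by Dicer. miR-486-5p comes from hairpins within ANK1, the gene of the red cell protein ankyrin 1, and is also made in muscle. miR-223 is a miRNA of myeloid cells, miR-150 of mature lymphocytes, and miR-122 is the leading miRNA of hepatocytes and a serum marker of liver injury. All are well conserved among mammals, and a count under a human name does not give the species of the RNA.

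Sequences of 3 of the 6 miRNAs matched the RefSeq table of GRCh38.p14, and these are printed with the other arm of the miR-122 hairpin and 3 miRNAs that the results below turn on, so that arms and near copies can be compared. The capitals mark the seed.
miR-122-5p: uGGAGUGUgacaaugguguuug
miR-122-3p: aACGCCAUuaucacacuaaaua
miR-144-3p: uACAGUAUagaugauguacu
miR-223-3p: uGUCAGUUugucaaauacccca
miR-192-5p: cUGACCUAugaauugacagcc
miR-215-5p: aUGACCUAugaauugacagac
miR-342-3p: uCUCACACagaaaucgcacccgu
The mature miR-122-5p lies at chr18:58451088-58451109 on the plus strand, within an exon of its host transcript MIR122HG as annotated in GENCODE release 44. The mature miR-144-3p lies at chr17:28861548-28861567 on the minus strand and miR-223-3p at chrX:66018937-66018958 on the plus strand, the latter within an exon of MIR223HG. MIR150 lies at chr19:49500785-49500868 on the minus strand, with no same-strand host annotated. Each of the 7 printed sequences occurred exactly once, over both strands, in the 25 chromosomes of GRCh38 that were searched, and the first 18 bases of miR-122-5p, miR-223-3p and miR-215-5p occurred at 2 places each. No other miRNA name of the count table with a RefSeq sequence shared the seed of miR-122-5p, miR-144-3p or miR-223-3p or came within 3 edits of them. In contrast, miR-192-5p and miR-215-5p have the same seed and are 2 edits apart.

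The totals behind the values were 154185 miRNA counts in the first small RNA library and 113185 in the second. The columns carry the same name, so the libraries have no replicate number. At this depth 1 read corresponds to 6.49 CPM (counts per 1000000 miRNA counts) in the first library, against 8.84 CPM in the other. A count of 0 allows up to 3 reads, or 19.5 CPM and 26.5 CPM. These limits and all intervals cover counting error only. The study calls the libraries biological replicates.

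Of the 6 blood and liver miRNAs, only miR-122-5p and miR-486-5p had a read in both libraries. This is 2 of 6, where 14.9% of all 2588 listed miRNAs met the same criterion, and the members are too few to set their share against this background. A read in either library was found for 3 of the 6, against 29.6% of all listed miRNAs. At least 10 reads in both were counted for 1 of the 6, miR-122-5p, and for 5.56% of all. Together the 6 took 45 reads of the first library and 34 of the second, which is 0.0292% and 0.0300% of the miRNA counts, or 296 CPM ± 6.04 (SD, n = 2). The level depends on the total, and it was 1623 CPM with the 10 most abundant names left out of it. Among those names, miR-3182 had 46734 and 32104 reads and miR-4448 had 31086 and 32691. Most reads of the 6 blood and liver miRNAs were of the liver miRNA. miR-122-5p made up 86.7% of the reads on the 6 names in the first library (exact 95% interval 73.2 to 94.9%) and 76.5% in the second (58.8 to 89.3%).

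**Figure D1:**
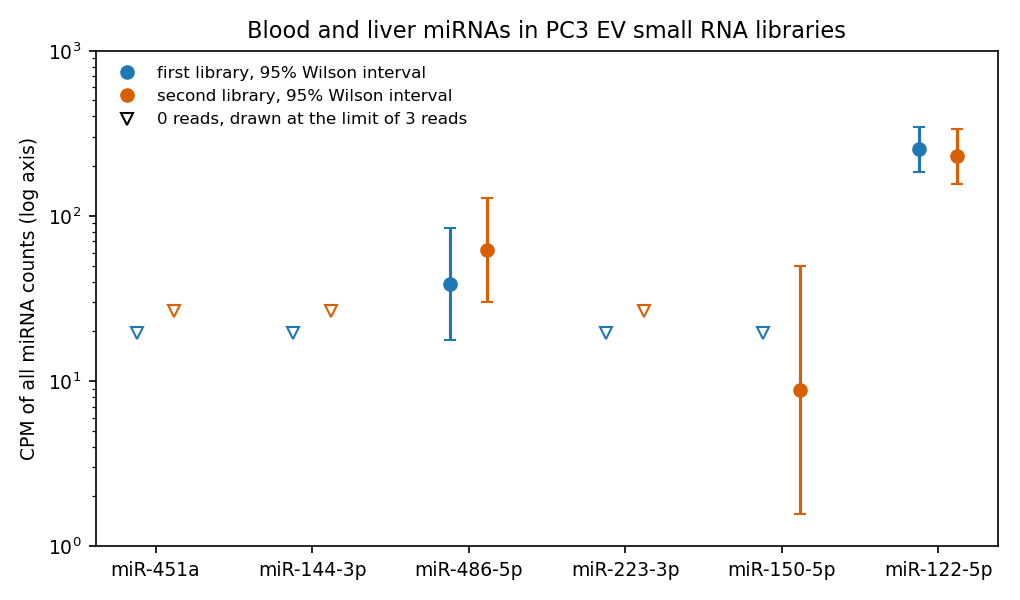
CPM of the 6 blood and liver miRNAs (log axis) in the first and second small RNA library, with 95% Wilson intervals as bars. Open triangles stand for 0 reads and are drawn at the limit of 3 reads, 19.5 and 26.5 CPM. miR-122-5p lies at 253 and 230 CPM in the first and second library, above miR-486-5p at 38.9 and 61.8 CPM, while miR-451a, miR-144-3p and miR-223-3p have no read.

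The liver miRNA miR-122-5p had 39 reads in the first library, a level of 253 CPM (95% Wilson interval 185 to 346 CPM), and 26 reads in the second, a level of 230 CPM (157 to 337 CPM). The mean was 241 CPM ± 16.4 (SD, n = 2), and the intervals of the libraries overlap. The level in the second library was 0.908 times that in the first (exact 95% interval 0.531 to 1.53), and the difference was not past the threshold (adjusted p = 0.908, Fisher's exact test). The test set each miRNA's reads against the rest of its library for the 208 miRNAs with at least 10 reads over both libraries, with Benjamini-Hochberg adjustment over all of them. It compares these libraries and not conditions, and it called 27.4% of the miRNAs tested at an adjusted p under 0.05. The direction of this difference turned with the scaling, since without the 10 most abundant names in the total miR-122-5p was 0.17 higher on the log2 scale in the second library rather than 0.14 lower.

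By mean CPM miR-122-5p ranked 97 of the 765 miRNAs that had any read. The miRNA just above it was miR-186-5p, with 43 and 25 reads, and the one just below was miR-330-3p, with 38 and 26 reads. Their means, 250 CPM ± 41.0 and 238 CPM ± 11.8 (SD, n = 2), differ from that of miR-122-5p by less than its SD, so this place in the order is not resolved. Among the 66 miRNAs with 30 to 100 reads over both libraries, 8 had a smaller difference between the libraries than miR-122-5p. The median absolute difference was 0.45 on the log2 scale against 0.13 for miR-122-5p, both with 0.5 reads added. The signed median of the 66 was -0.39 (second minus first, quartiles -0.84 to -0.027), against -0.13 for miR-122-5p. The absolute values thus include a shift of the whole group and do not show that miR-122-5p was steadier. For scale, miR-21-5p, an abundant miRNA of many cancer cells, had 5831 and 3031 reads. Its count was 150 times that of miR-122-5p in the first library (exact 95% interval 109 to 210) and 117 times in the second (79.4 to 179).

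All 65 reads of the miR-122 hairpin were on the 5p arm, the arm known to be kept in hepatocytes. No read was counted on miR-122-3p in either library. The reads of the 5p arm were 13.0 times the floor of 3 reads in the first library and 8.67 times in the second. These folds leave out the counting error of the 5p reads. A minor arm without a read was not particular to miR-122. Of 35 hairpins with both arms listed and 30 to 100 reads on the major arm, 13 (37.1%) had none on the minor arm, and the median on the minor arm was 1 read.

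Among the red cell miRNAs, miR-451a, the defining one, had 0 reads in both libraries. The 39 and 26 reads of miR-122-5p are 13.0 times and 8.67 times the floor of 3 reads, leaving out their own counting error. Against the upper bounds of the 95% Wilson intervals of miR-451a, 24.9 CPM and 33.9 CPM, the lower bounds of miR-122-5p, 185 CPM and 157 CPM, were higher in both libraries. miR-144-3p, the cluster partner of miR-451a, also had 0 and 0 reads. The cluster spans chr17:28861369-28861730 and holds 4 annotated hairpin genes, MIR451A, MIR451B, MIR144 and MIR4732. Their 6 mature names had 1 read in all, on miR-4732-5p. Neither small RNA library thus had a read of miR-451a, miR-451b or either arm of miR-144.

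miR-486-5p was the exception among the red cell miRNAs, with 6 reads in the first library, 38.9 CPM (95% Wilson interval 17.8 to 84.9 CPM), and 7 reads in the second, 61.8 CPM (29.96 to 128 CPM). The mean was 50.4 CPM ± 16.2 (SD, n = 2), at rank 181. The libraries overlap, and their ratio of 1.59 (exact 95% interval 0.457 to 5.72) was not past the threshold (adjusted p = 0.622, Fisher's exact test). No read of its other arm, miR-486-3p, was counted. miR-122-5p had 6.50 times the reads of miR-486-5p in the first library (exact 95% interval 2.73 to 18.8) and 3.71 times in the second (1.57 to 10.1), so both intervals lie above 1. The Wilson intervals of miR-486-5p overlap those of miR-451a in both libraries, but overlap of intervals does not decide whether the levels differ. The 6 and 7 reads of miR-486-5p lie above the floor of 3 reads set for the 0 reads of miR-451a. Its lower Wilson bound lies under that floor in the first library (17.8 against 19.5 CPM). In the second it lies above (29.96 against 26.5 CPM). A difference between these red cell miRNAs was not tested.

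The leukocyte members were at the limit of detection. miR-223-3p had 0 reads in both libraries and so had its other arm, miR-223-5p. miR-150-5p had 0 reads in 1 library, the first, and 1 read in the other, which is under the floor, and miR-150-3p had none. In descending order of reads the members were thus miR-122-5p, miR-486-5p and then miR-150-5p, miR-451a, miR-144-3p and miR-223-3p, and these last 4 could not be ordered at this depth.

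To see whether other miRNAs of the same tissues behaved like the 6 members, wider lists that include them were counted. On the list of 9 red cell miRNAs, 1 had a read in both libraries and 7 had none, and the list summed to 53.6 CPM ± 11.6 (SD, n = 2), nearly all of it miR-486-5p. On the list of 10 leukocyte miRNAs, 3 had a read in both and 5 had none, with a sum of 357 CPM ± 118 (SD, n = 2). On the list of 6 liver miRNAs, 3 had a read in both and 3 had none, with a sum of 485 CPM ± 25.9 (SD, n = 2). Of the 2 platelet and endothelial miRNAs, miR-126-3p had 6 and 3 reads and miR-126-5p had none. These shares of each list with a read in both, 11.1% (red cell), 30% (leukocyte), 50% (liver) and 50% (platelet and endothelial), stand beside 14.9% of all listed miRNAs, and with lists this small nothing is read from the difference. The median over both libraries was 0 reads for the red cell list, 0.5 for the leukocyte list and 2 for the liver list, and it was 0 for all listed miRNAs.

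The leukocyte sum was carried by miR-342-3p, which is made from an intron of EVL and is found in lymphocytes but also in other tissues. It had 55 and 28 reads, a mean of 302 CPM ± 77.3 (SD, n = 2), and the libraries did not differ past the threshold (adjusted p = 0.264, Fisher's exact test). miR-142-3p and miR-142-5p, which are made by nearly all blood cell lineages, had no read in either library. The activation-linked miR-155-5p had 4 and 1 reads and miR-146a-5p had 5 and 0.

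Beside miR-122-5p, the liver list was carried by miR-192-5p, a miRNA of liver, gut and kidney epithelium. It had 30 reads in each library, 195 and 265 CPM, with a mean of 230 CPM ± 49.8 (SD, n = 2). The ratio of miR-122-5p to miR-192-5p was 1.30 in 1 library, the first (exact 95% interval 0.787 to 2.17) and 0.867 in the second (0.492 to 1.52), so the order of the 2 changed between libraries and was not resolved in either. The near copy miR-215-5p had 6 reads in each library, and how reads that fit both names were counted is not given in the sources used here. miR-194-5p, which is made together with miR-192 or miR-215, had 3 and 1 reads. No read was counted on either arm of miR-885, another hepatocyte miRNA.

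As a comparison list of tissue miRNAs that neither blood nor liver is known for, 10 miRNAs of muscle, brain and pancreas were counted in the same way. None had a read in both libraries, where 14.9% of all listed miRNAs did. miR-1-3p and miR-124-3p had 1 read each, both in the first library, and the other 8 had none. The highest value on this list was 1 read, where miR-122-5p had 65, while miR-451a, miR-144-3p, miR-223-3p and miR-150-5p lie within its range. For brain the list holds miR-124-3p alone, and it was chosen with earlier results of these data known. Its low counts thus hold for the names listed and not for miRNAs of these tissues at large. miR-9-5p, a brain miRNA that is not on the list, had 110 and 45 reads.

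**Figure D2:**
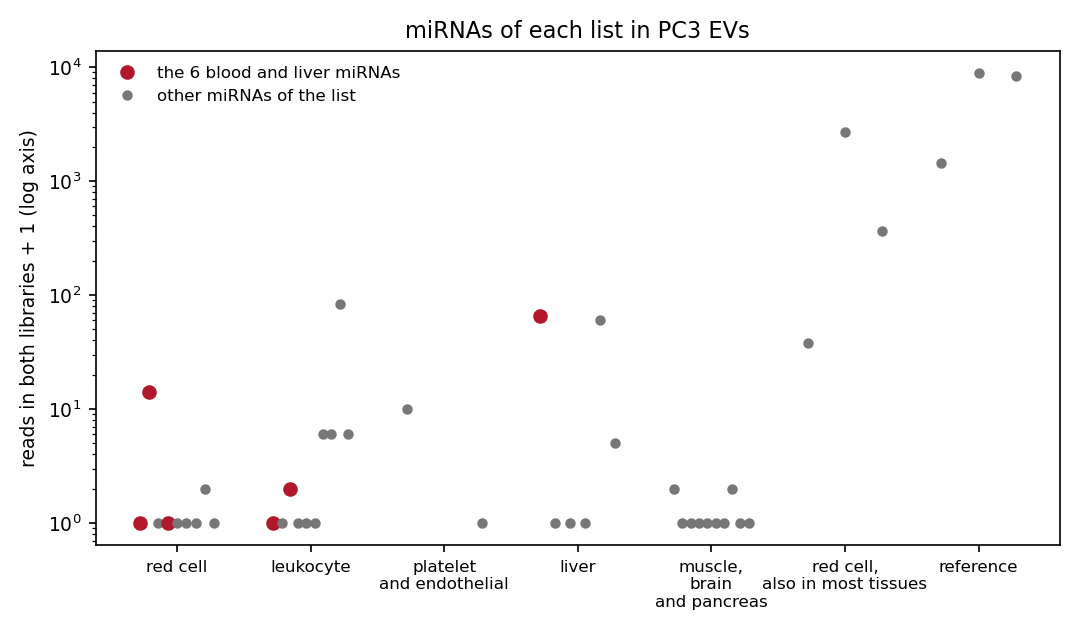
Reads summed over both small RNA libraries, plus 1 (log axis), for each miRNA of the 7 lists. Red points are the 6 blood and liver miRNAs and grey points are other miRNAs of the same list. Within the liver list miR-122-5p stands at 65 reads, and in the muscle, brain and pancreas list no miRNA has more than 1 read.

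Some miRNAs are abundant in red cells but are made in most other tissues too, and these were present. miR-92a-3p had 1782 and 920 reads and miR-25-3p had 238 and 127. miR-16-5p, a common reference in serum work, had 32 and 5 reads. These are 208 CPM and 44.2 CPM, a ratio of 0.213 (exact 95% interval 0.0647 to 0.550, adjusted p = 0.00203, Fisher's exact test). The counting error was also widened by the spread between the libraries over all 208 miRNAs tested. Under this setting 2 of the 208 were called, and miR-16-5p was not (adjusted p = 0.998 from a normal approximation across all of them). With 37 reads over both libraries it could not have been called at any split, so this setting could not decide. Fisher's exact test knows counting error only, so a difference of miR-16-5p beyond the spread between the libraries was not shown. In serum work the ratio of miR-23a-3p, which red cells contribute little of, to miR-451a is used to detect lysed red cells. In these vesicle libraries of a cell line miR-23a-3p ranked 21 by mean CPM, and miR-451a had no read. The ratio is thus no check for lysed red cells here and mainly restates the 0 reads of miR-451a. miR-23a-3p had 1044 and 389 reads, which is 348 times the floor of 3 reads in the first library and 130 times in the second. With 0.5 reads added to miR-23a-3p and to miR-451a, their log2 ratio was 10.32 ± 1.01 (SD, n = 2), a value that depends on what is added. The reference let-7a-5p had 4661 and 3652 reads.

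**Figure D3:**
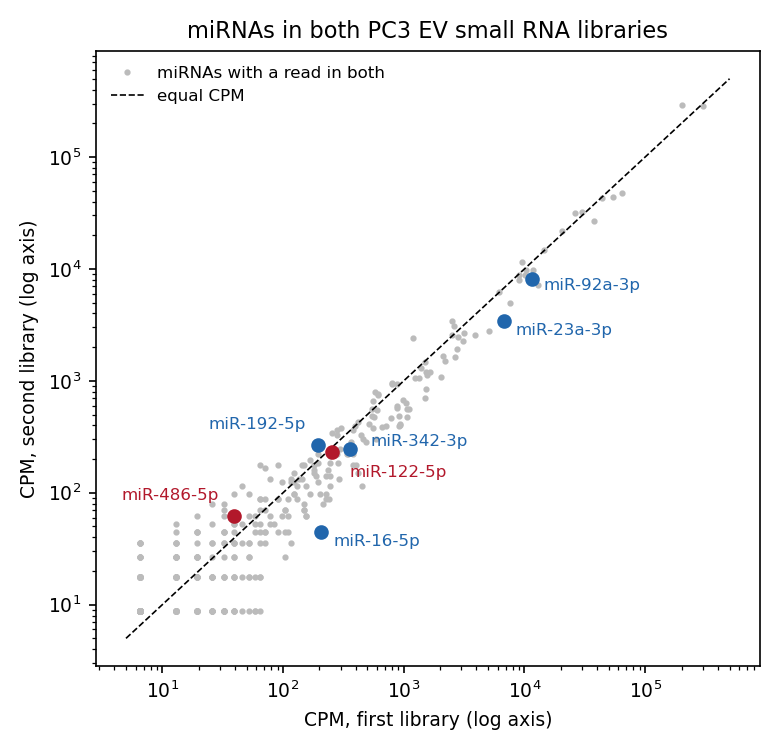
CPM of the 386 miRNAs with a read in both small RNA libraries, first library on the horizontal and second on the vertical axis (both log axes), with the dashed line at equal CPM. miR-122-5p and miR-486-5p (red) lie near the line, and miR-16-5p (blue) lies below it at 208 and 44.2 CPM.

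The total RNA libraries hold counts that the rule for the members does not use, with 489170 gene counts in replicate 1 and 475942 in replicate 2. Markers of the same source cells were counted there. The serum was fetal bovine, while these reads were mapped to the human genome, so bovine transcripts may have gone uncounted. Counts of 0 on these genes thus do not test for RNA from the serum. Of 26 genes typical of red cells, leukocytes, platelets and liver, 1 had a read in either replicate, where 42.3% of 19629 protein-coding genes did, and 0 had a read in both, where 21.9% did. None of the 9 red cell genes counted here had a read, among them HBB, HBA1, HBA2 and ALAS2, which encode haemoglobin chains and the haem synthesis enzyme of red cells. The 8 leukocyte genes, such as PTPRC (CD45) and S100A8, and the 6 liver genes, such as ALB (albumin) and APOA1 (apolipoprotein A1), had none either. The exception was ITGA2B, the platelet integrin alpha IIb, with 36 reads in replicate 1 and 0 in replicate 2, while the platelet chemokine genes PF4 and PPBP had none. HBA1 and HBA2, and likewise HBG1 and HBG2, are near copies, and reads that aligned to several places, 45.5% and 48.1% of all reads, were not counted on genes.

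Of the 10 host and primary transcripts of the members that were listed, 6 matched the total RNA table, and none of these 6 had a read. ANK1, MIR486-1, MIR486-2, MIR150, MIR223HG and MIR122HG all had 0 reads in both replicates, so no read of MIR122HG stood beside the miR-122-5p reads. The genes MIR144, MIR451A, MIR223 and MIR122 were not analysed here. A count of 0 allows up to 6.13 CPM (replicate 1) or 6.30 CPM (replicate 2), and 2.50% and 2.16% of the reads were counted on genes. In contrast, all 6 genes listed for the epithelial line had a read in both, though VIM, CD44 and ANXA2 are not particular to epithelial cells. KRT8, a keratin of simple epithelia, was the highest with 966 and 1088 reads, a mean of 2130 CPM ± 220 (SD, n = 2). Its partner KRT18 had 94 and 87 reads, VIM (vimentin) 130 and 87, CD44 72 and 44, ANXA2 (annexin A2) 44 and 55, and EPCAM 2 and 26. The keratins KRT8 and KRT18 were thus well above the floor of 3 reads in both replicates, while EPCAM was under it in replicate 1. The 26 blood and liver markers counted here were at 0 apart from ITGA2B.

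**Figure D4:**
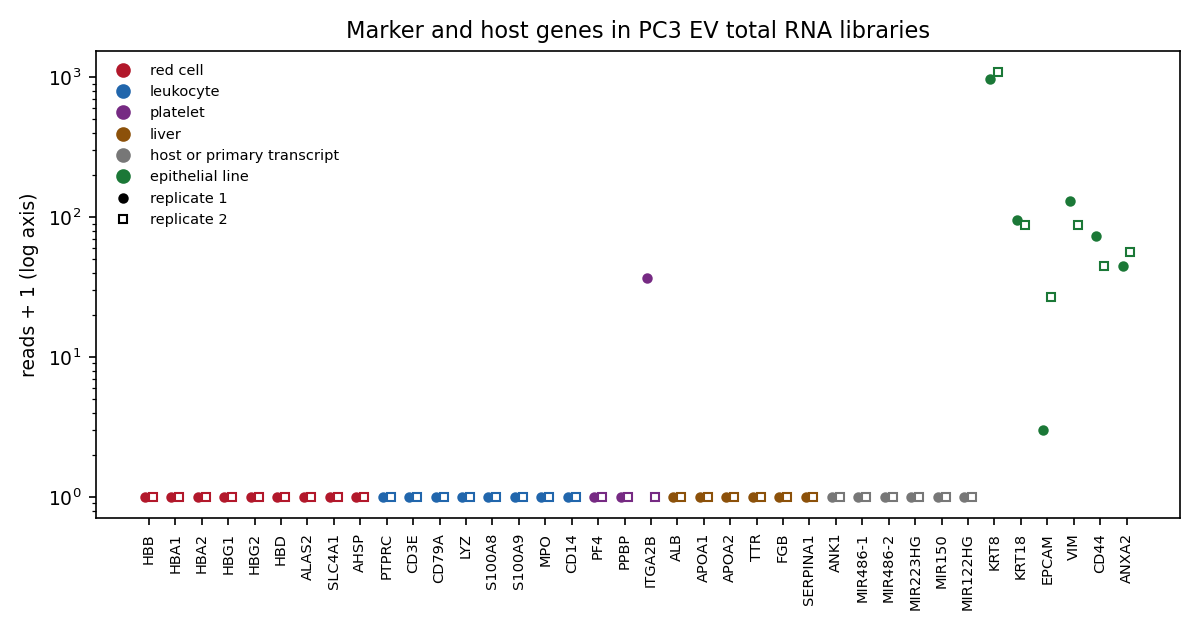
Reads plus 1 (log axis) on each marker or host gene in the 2 total RNA libraries, with filled circles for replicate 1 and open squares for replicate 2, coloured by list. The red cell, leukocyte, liver and host genes all lie at 0 reads, and ITGA2B has 36 reads in replicate 1 only. The genes listed for the epithelial line range from 2 to 1088 reads.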

How the data were processed

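RNA of PC3 vesicles was profiled in 2 small RNA and 2 total RNA libraries. The authors used Cutadapt for trimming and SHRiMP for mapping, and the small RNA values they deposited are raw read counts of mature miRNAs. The total RNA values are raw HTSeq counts of Ensembl genes after mapping to GRCh38. The title of the second total RNA sample starts with the same label as that of the first. Its description carries a different label, and the description was followed. Versions, mismatch and strand settings and the handling of reads that fit several miRNAs are not given in the sources used here. In the total RNA, reads aligned to several places were set aside. Small RNA reads that fit near copies may have been split, and ligation and amplification favour some sequences, so levels of different miRNAs are read as counts, not molecules.

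Counts were scaled to CPM of the library total, with 95% Wilson intervals for shares and exact binomial intervals for ratios. Libraries were compared by two-sided Fisher's exact tests over 208 miRNAs, adjusted by Benjamini-Hochberg. The test was checked on counts simulated with counting error only, where it called 1.18% of the unchanged miRNAs. The simulation left out the further spread between these libraries, so the check does not cover that spread. TMM factors came from edgeR 4.0.16 in R 4.3.3, and other values from Python 3.11.15 with scipy 1.17.1. Gene names and loci came from GENCODE release 44. The miRNAs named are the 6 members, their other arms, listed miRNAs with at least 10 reads in both libraries and the miRNAs next in level to members with as many reads. Other list members, miR-215-5p, miR-9-5p, miR-3182, miR-4448 and genes at 0 were named after their values were seen. Members and lists were chosen with earlier results of these data known. One gene of the red cell list is not reported here, so statements on that list cover the other 9.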

Additional observations from a re-analysis of the deposited data

How the results depend on the processing

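No paired analysis was possible because there is no second group to pair with and the columns of miRNA counts are not numbered. A minimum of 10 reads in both libraries was met by 1 of the 6 miRNAs, miR-122-5p, in place of 2, and with each library left out in turn from 2 to 3 had a read. Scaling to the total without the 10 most abundant names raised the sum of the 6 to 1623 CPM, miR-122-5p to 1314 CPM, miR-486-5p to 282 CPM and miR-150-5p to 26.7 CPM, because the total is smaller. TMM scaling moved these 4 levels by less than their SD. With each library left out, the sum ranged from 292 to 300 CPM. The number of miRNAs that differed between the libraries was 57 of 208. It fell to 34 without the 10 most abundant names and to 2 with the widened counting error, an alternative added after seeing the data, and was 39 with no minimum. Neither miR-122-5p nor miR-486-5p was called under any of these, with adjusted p from 0.503 to 1. With the widened counting error, neither had enough reads to be called at any split, so that setting could not decide. With 1 read added in place of 0.5, the log2 ratio of miR-23a-3p to miR-451a was 9.32, and from 9.61 to 11.03 with each library alone. Depth limits the 4 members with 1 read or none, whose absence is not shown.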
